A study of Mus musculus with 18 samples.

Results

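Genes of a mouse embryonic fibroblast (MEF) line were compared for how they moved when an activator and when a repressor were induced at the same repeat. The activator line carried an inducible dCas9-VPR, and its induced cells had received 10 ng/ml doxycycline for 6 h, against untreated cells of the same line. The repressor line carried an inducible dCas9-KM, and its induced cells had received 100 ng/ml doxycycline for 24 h, against untreated cells of that line. Each of these 4 groups had 3 libraries, so 12 of the 18 libraries of the study entered the comparison, and the other 6 came from a line with dCas9 alone, given 10 ng/ml for 24 h or nothing. All lines were grown in the same medium with serum free of tetracycline and with hygromycin. The tested quantity was the interaction, which is the log2 change of a gene in the activator line (VPR induced over VPR uninduced) minus its log2 change in the repressor line (KM induced over KM uninduced). Hours and dose both differed between the 2 inductions, so effector, time and dose cannot be told apart. Whether libraries of a group came from separate cultures, and whether a line was 1 clone, is not in the labels. The p-values therefore reflect the spread between libraries, which may be technical.

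dCas9 is a Cas9 that binds the site its guide RNA names but no longer cuts. VPR is a fusion of strong transcriptional activation domains, and the design text of the study calls dCas9-KM a transcriptional repressor. Both were aimed at the major satellite repeat, the tandem array next to the centromeres of mouse chromosomes, packed as heterochromatin. Genes that answer to growth factors, stretch or amino acid supply can move within hours of a change in culture, and fibroblasts express many of them together with the collagens and other matrix proteins that mark the cell type.

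The 12 libraries held between 16006476 and 25262912 read counts in genes, and 15837 genes passed the filter on low counts. Calls were made with edgeR's quasi-likelihood test at a Benjamini-Hochberg threshold of 0.05, and levels are in CPM, the count of a gene relative to its library's TMM-scaled total, with n = 3 libraries a group. The VPR induced libraries stood apart from the rest. They lay at 104 to 113 on the first principal component, which held 84.3% of the variance of log2 CPM, against -39.1 to -33.3 for the other 9 libraries. A count was seen for 22641 to 23420 genes in them and for 20201 to 21331 genes in the others, and mitochondrially encoded genes took 0.917% to 0.971% of their counts against 0.615% to 0.674%. Fibroblast markers summed to 23210 to 23700 CPM in VPR induced, 20470 to 20750 CPM in VPR uninduced, 18460 to 18790 CPM in KM induced and 21650 to 22110 CPM in KM uninduced libraries. None of these 12 markers was at 0 in all libraries.

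The satellite itself was read first, through 13 gene models whose transcripts are made of it. A unit of the repeat, from a transcript of the model Gm26870 (GENCODE M21, gene at chr9:3000282-3038313, GRCm38), is shown because it is what both effectors were aimed at. Capitals mark bases that are the same 234 bases further on in the transcript, which was so for 228 of the 234.

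Gm26870: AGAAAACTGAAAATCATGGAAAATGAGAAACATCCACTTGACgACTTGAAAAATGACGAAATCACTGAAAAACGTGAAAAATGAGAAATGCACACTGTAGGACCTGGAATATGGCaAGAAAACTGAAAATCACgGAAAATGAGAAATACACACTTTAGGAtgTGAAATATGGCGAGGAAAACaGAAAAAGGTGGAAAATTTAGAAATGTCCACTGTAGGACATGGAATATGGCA

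The summed satellite models stood at 4714, 3894 and 3323 CPM in VPR induced libraries, against 31.0, 29.9 and 32.6 CPM in VPR uninduced libraries. They stood at 0.835, 0.738 and 0.890 CPM in KM induced libraries, from 14, 15 and 17 reads, against 6.34, 5.43 and 5.85 CPM in KM uninduced libraries. All libraries of an induced group lay beyond all of its uninduced group, above it with the activator and below it with the repressor. The log2 change was 7.00 (SE 0.149, adjusted p = 7.98e-11) with the activator and -2.83 (SE 0.648, adjusted p = 0.0282) with the repressor, and the interaction was 9.83 (SE 0.637, adjusted p = 7.78e-07). An exact two-sided permutation test gave p = 0.1 within each line, the smallest that 3 against 3 allows. The KM induced values rested on few reads, and the repressor call varied with the setting. Leaving out any 1 of the 6 repressor-line libraries gave an edgeR adjusted p between 0.0616 and 0.0995. Leaving out VPR induced library 1 gave 0.000327, scaling to mitochondrially encoded genes gave 1.893e-28, and DESeq2 gave 1.755e-24. Why these differ was not tested. Reads may be placed on any of these near-identical models. Of the models tested singly, 12 of 12 were called higher with the activator, 9 in the interaction and 0 lower with the repressor by edgeR, where 1 was lower at an unadjusted p of 0.05.

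The interaction was called for 10233 of 15837 genes (64.6%), 4972 higher with the activator relative to the repressor (31.4%) and 5261 lower (33.2%). Most of these genes were called in the activator line and not in the repressor line. That line had 12105 calls (76.4%), and the repressor line had 1537 (9.71%), of which 817 were higher (5.16%) and 720 lower (4.55%). Of the interaction calls, 8816 belonged to genes called in the activator line and not in the repressor line, 164 to genes called in the repressor line only and 222 to genes called in neither. In the line with dCas9 alone, fitted with all 18 libraries, 75 of 16216 genes were called (0.463%), and values given for it below come from that fit with no test between lines.

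Both inductions called 1289 genes, which was 83.9% of the repressor calls and 10.7% of the activator calls. Of all genes tested, the activator called 76.4% and the repressor 9.71%. Of these, 569 moved in opposite directions with the interaction called too, and 720 moved in the same direction. The opposed genes were 234 (1.48% of the genes tested) that rose with the activator and fell with the repressor and 335 (2.12%) that fell with the activator and rose with the repressor. Those moving together were 328 (2.07%) higher in both and 392 (2.48%) lower in both. Of the 817 genes that rose with the repressor, 41.0% fell with the activator and 40.2% rose with it, near the shares of all genes (37.9% and 38.6%). Of the 720 that fell with the repressor, 32.5% rose with the activator and 54.4% fell with it, and these shares were not tested against those of all genes. Over all 15837 genes, Pearson's r between the 2 log2 changes was 0.094 and Spearman's rho 0.129, a description across genes that share libraries and are not independent.

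**Figure D1:**
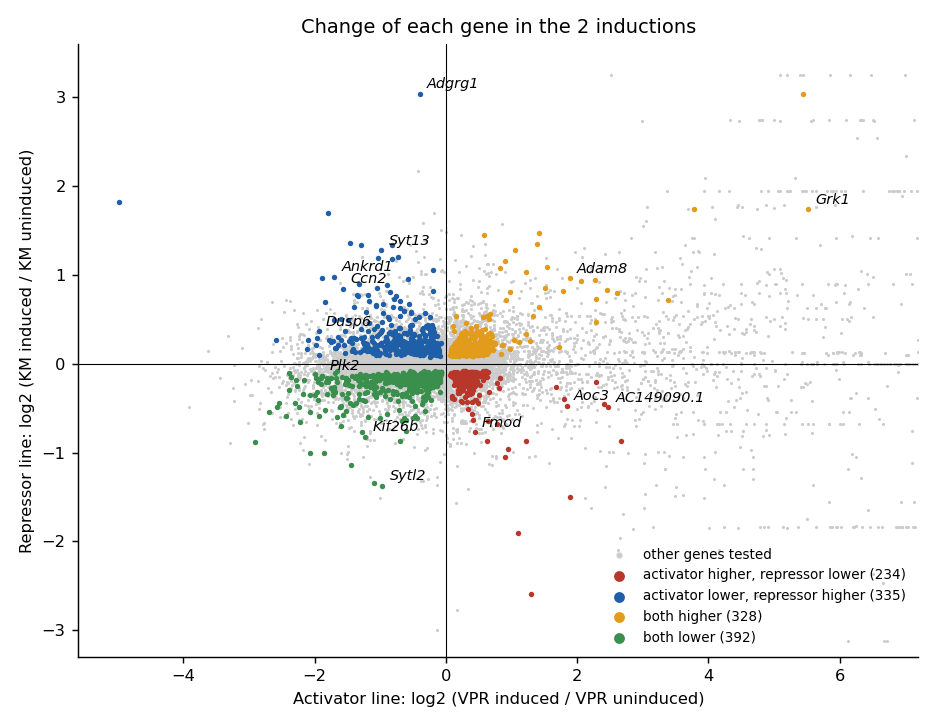
Log2 change of each tested gene in the activator line (x axis, VPR induced over VPR uninduced) and in the repressor line (y axis, KM induced over KM uninduced). Coloured points are the 234, 335, 328 and 392 genes called in both inductions, grey points the other genes tested, 178 points lie outside the axes, and rows of grey points at 1 height are genes with very few counts in the repressor line.

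Changes with the repressor were small. The median log2 changes were 0.33 with the activator and -0.16 with the repressor among the genes that rose with the first and fell with the second. They were -0.61 with the activator and 0.23 with the repressor among the genes that did the reverse. Among genes higher in both, the medians were 0.38 with the activator and 0.17 with the repressor, and among genes lower in both they were -0.64 and -0.19 in the same order. The medians over all genes tested were 0.01 with the activator and -0.00054 with the repressor. Without KM uninduced library 2 the 4 classes held 144, 247, 199 and 257 genes, and without KM induced library 2 they held 147, 261, 211 and 255, in the order given above. DESeq2 gave 195, 198, 197 and 243. Changes of at least 1.5-fold in both lines were found for 11, 33, 24 and 20 genes of the 4 classes in the order given above. In the opposed classes the mean levels of both uninduced groups lay between those of the 2 induced groups for 186 of 234 and 300 of 335 genes. This held for 3246 of the 10816 genes called with the activator only. Changes in opposite directions largely bring it about, so it is no separate result. In the line with dCas9 alone, 3 of 234, 10 of 335, 10 of 328 and 12 of 392 genes were called in the direction of the repressor and 0 against it. Of all genes, 0.463% were called in that line in either direction. Called or not, the change with dCas9 alone had the sign of the repressor change for 125, 249, 264 and 267 genes of the 4 classes. Among genes called in neither induction this was so for 1879 of 3484. These shares were not tested.

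These directions were relative to the scaling of the libraries, and the activator libraries were sensitive to it. The median log2 change of all genes with the activator was 0.01 with TMM scaling, 0.04 with relative log expression (RLE), 0.11 with the upper quartile, -0.21 with total counts and -0.74 when scaled to mitochondrially encoded genes. Of the 234 genes that rose with the activator and fell with the repressor, 60 stayed in that class with total counts and 5 with mitochondrial scaling. Of the 335 that fell with the activator and rose with the repressor, 334 stayed with total counts and 215 with mitochondrial scaling. Of the genes higher in both, 195 of 328 and 21 of 328 stayed under these scalings, and of the genes lower in both, 210 of 392 and 277 of 392. The interaction of the satellite models was called under each of the 5 scalings.

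**Figure D2:**
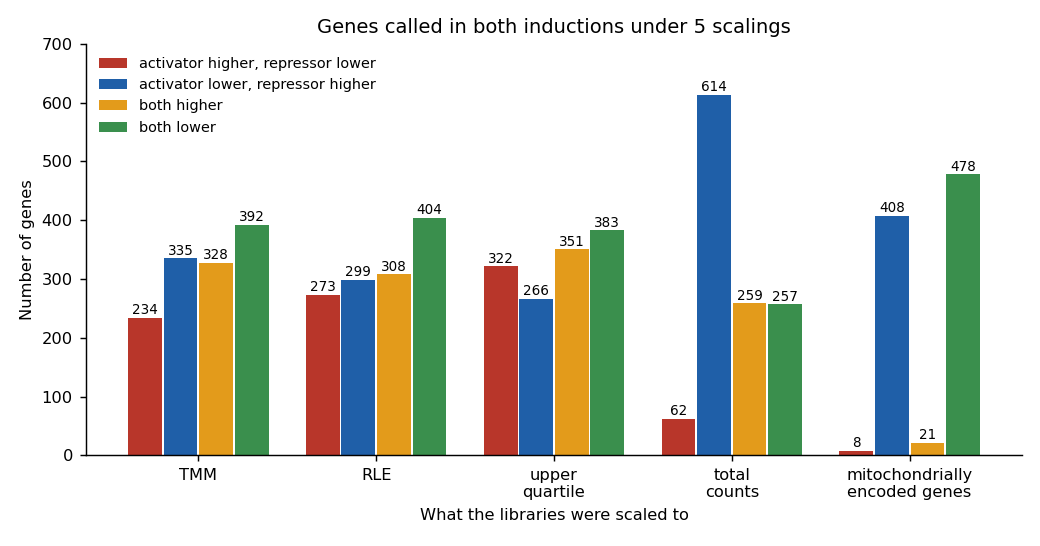
Number of genes called in both inductions (y axis) in each of 4 classes (bar colours) when the libraries were scaled in 5 ways (x axis). The class that rose with the activator and fell with the repressor held 234 genes with TMM and 62 with total counts, while the class that did the reverse held 335 and 614.

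Targets of the stretch-regulated coactivator YAP were among the genes that fell with the activator and rose with the repressor. Ankrd1, a nuclear ankyrin-repeat protein, and Ccn1 and Ccn2, secreted matricellular proteins, are widely used readouts of YAP and its DNA-binding partners of the TEAD family. The sequence GGAATG is the core that TEAD factors bind. It was searched on both strands of the 250 bases before the RefSeq gene start (GRCm38.p6), and the promoters of Ankrd1 (chr19:36119845-36120094, minus strand) and Ccn1 (chr3:145649986-145650235, minus strand) are shown with it in capitals.

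Ankrd1: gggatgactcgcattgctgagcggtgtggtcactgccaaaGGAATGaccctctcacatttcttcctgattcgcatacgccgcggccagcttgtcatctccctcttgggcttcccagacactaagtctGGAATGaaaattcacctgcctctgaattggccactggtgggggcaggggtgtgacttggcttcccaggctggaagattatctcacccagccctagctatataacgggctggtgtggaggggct

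Ccn1: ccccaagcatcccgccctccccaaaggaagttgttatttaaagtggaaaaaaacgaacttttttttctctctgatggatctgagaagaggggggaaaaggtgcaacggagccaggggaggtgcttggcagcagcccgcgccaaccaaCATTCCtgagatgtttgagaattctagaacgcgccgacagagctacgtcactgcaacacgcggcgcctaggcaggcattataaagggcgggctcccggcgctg

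The Ankrd1 window held GGAATG at 210 and 123 bases before the start, and the Ccn1 window held it at 103 bases on the other strand, where it reads CATTCC. A match is a description and not a binding site: 12.6% of all 32851 promoter windows held one. Among the promoters of tested genes 10.8% did, among those of genes that fell with the activator and rose with the repressor 10.6%, and among those of genes that did the reverse 12.1%. RefSeq promoters were found for 260 of the 335 and 177 of the 234 genes, and a gene can have several.

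Ankrd1 stood at 15.5, 18.8 and 19.6 CPM in VPR induced libraries, against 59.4, 57.0 and 58.6 CPM in VPR uninduced libraries. In the repressor line it stood at 73.4, 72.5 and 75.1 CPM in KM induced libraries, against 36.7, 37.8 and 37.4 CPM in KM uninduced libraries. No library of an induced group overlapped its uninduced group, which was a condition for naming genes by the size of both changes. The KM induced libraries held the highest values of all. The gene fell 3.25-fold with the activator (log2 -1.70, SE 0.055) and rose 1.98-fold with the repressor (log2 0.98, SE 0.046), and the interaction was -2.68 (SE 0.071, edgeR adjusted p = 6.07e-39). Its log2 change with dCas9 alone was 0.18 (adjusted p = 0.064).

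Ccn2 had 47.2, 49.9 and 44.0 CPM in VPR induced libraries and 131.9, 136 and 150.9 CPM in VPR uninduced libraries. The KM induced libraries had 230.6, 217.1 and 216.8 CPM and the KM uninduced libraries 124.3, 120.5 and 124.8 CPM. Both uninduced groups sat between the induced groups, as for Ankrd1. The interaction was -2.41 (SE 0.059, edgeR adjusted p = 4.24e-29), from log2 changes of -1.57 with the activator and 0.85 with the repressor. Ccn1 averaged 152.9 ± 3.78 CPM in VPR induced and 219.2 ± 8.23 CPM in VPR uninduced libraries, and 293.4 ± 5.91 CPM in KM induced and 239.1 ± 4.54 CPM in KM uninduced libraries (SD, n = 3 each).

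These 3 genes belong to a list of 24 contractile genes and targets of YAP or of the serum response factor SRF, of which 22 were tested. With the activator 12 of the 22 rose and 8 fell, and with the repressor 11 rose and 1 fell, where the shares over all genes were 38.6% and 37.9% with the activator and 5.16% and 4.55% with the repressor. The list's median log2 change was 0.13 with the activator and 0.09 with the repressor. Opposed members included Ankrd1, Ccn1, Ccn2 and Fhl2, a LIM-domain protein (log2 -0.69 with the activator and 0.28 with the repressor). These 4 fell with the activator under each of the 5 scalings, and the list had 5, 5, 5, 11 and 7 opposed members with TMM, RLE, upper quartile, total counts and mitochondrial scaling. The actin-binding members Tagln (0.69 with the activator and 0.33 with the repressor), Cnn2 (0.42 and 0.09), Tpm1 (0.16 and 0.11) and Vcl (0.28 and 0.14) rose in both lines with TMM, while 0 members rose in both with mitochondrial scaling. Amotl2, a junction protein and YAP target, fell in both (-1.03 and -0.12).

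**Figure D3:**
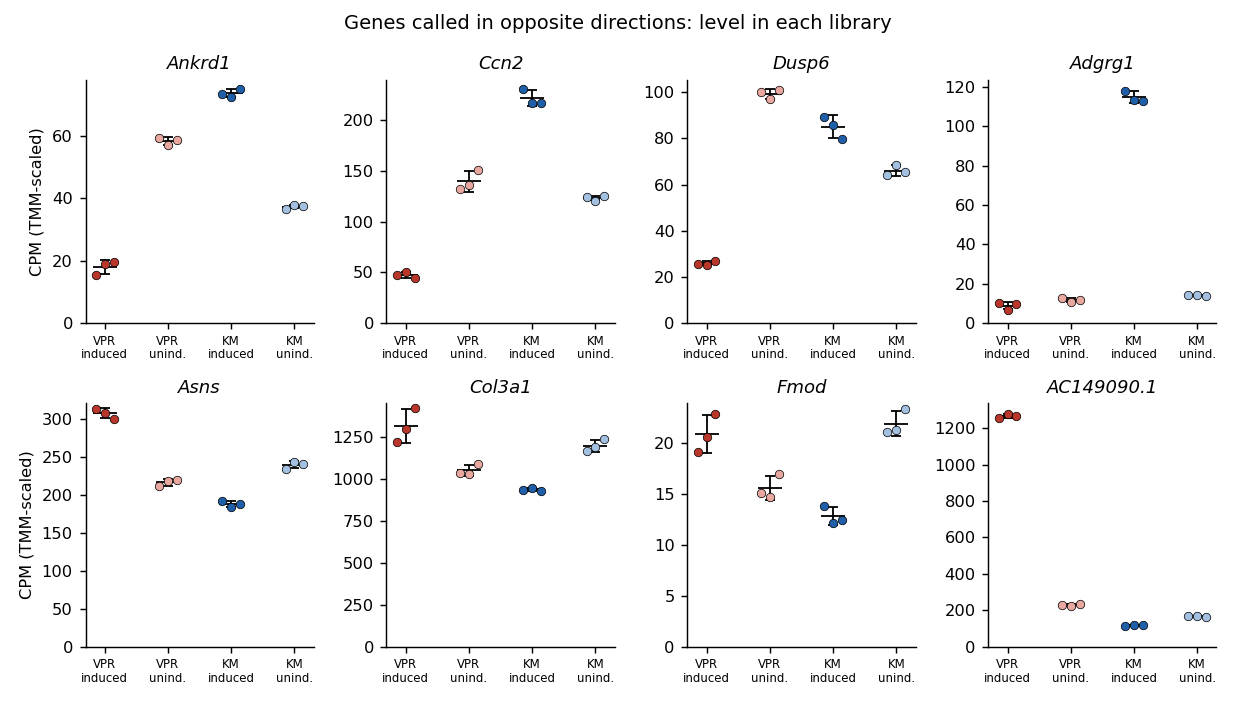
CPM after TMM scaling (y axes, from 0) of 8 genes called in opposite directions, in each library of the 4 groups (x axes, induced left of uninduced in each line). Coloured points are libraries, bars the mean and its SD over n = 3. Ankrd1, Ccn2, Dusp6 and Adgrg1 were lower in VPR induced and higher in KM induced libraries than in the uninduced libraries of their line, and Asns, Col3a1, Fmod and AC149090.1 the reverse.

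Feedback inhibitors of the ERK kinase pathway fell with the activator, and several of them rose with the repressor. ERK carries growth factor signals to the nucleus and switches on phosphatases and adaptor proteins that restrain it. All 13 tested genes of this list fell with the activator, 8 rose with the repressor and 0 fell with it by edgeR (0 also at an unadjusted p of 0.05 and by DESeq2, which called 7 higher), and all 13 were called lower in the interaction. Over all genes, 37.9% fell with the activator, 5.16% rose with the repressor and 33.2% were called lower in the interaction. The list's median interaction was -1.46, against -0.01 for all genes, and it lay between -2.19 and -1.35 under the 5 scalings. The 8 opposed members were Dusp4, Dusp5 and Dusp6, phosphatases that act on ERK, Spry4 and Spred3, inhibitors upstream of it, Errfi1, an inhibitor of the EGF receptor, Phlda1, and the transcription factor Etv4.

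Dusp6 had 25.6, 25.0 and 26.8 CPM in VPR induced libraries, against 100.3, 96.9 and 101 CPM in VPR uninduced libraries. It had 89.5, 85.9 and 79.7 CPM in KM induced libraries, against 64.0, 68.6 and 65.4 CPM in KM uninduced libraries. The groups of each line did not overlap, and the fall with the activator was much the larger of the changes. The log2 changes were -1.94 (SE 0.046) with the activator and 0.36 (SE 0.039) with the repressor, and the edgeR adjusted p of the interaction was 5.72e-39. Dusp4 likewise changed by -1.97 with the activator and 0.21 with the repressor, Dusp5 by -1.56 and 0.21, and Phlda1 by -1.76 and 0.25. Spry4 moved least of the 8 with the activator, at -0.25 with the activator and 0.35 with the repressor.

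The lists of immediate early genes and NF-kB targets held both opposed and parallel members. Of 28 immediate early genes, which growth factors and stress switch on within minutes, 10 rose and 13 fell with the activator, near the shares of all genes (38.6% and 37.9%). With the repressor 9 rose and 0 fell (12 and 1 at an unadjusted p of 0.05, 6 and 0 by DESeq2), where 5.16% and 4.55% of all genes did. Dusp1 (log2 -0.24 with the activator and 0.53 with the repressor), Ier2 (-0.22 and 0.20) and Ier3 (-0.73 and 0.22) were opposed. The transcription factor genes Egr1 (1.73 and 0.18), Maff (0.62 and 0.54), Csrnp1 (0.60 and 0.39) and Junb (0.15 and 0.16) rose in both. With total counts the list had 5 opposed and 3 parallel members, with mitochondrial scaling 3 and 1, and with DESeq2 1 and 3. The interaction of Egr1 was 1.54, that of Maff was not called (0.08, adjusted p = 0.476).

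Of 24 NF-kB target genes, 7 rose and 14 fell with the activator (38.6% and 37.9% of all genes). With the repressor 5 rose and 3 fell (5.16% and 4.55% of all genes). Tnfaip3, which encodes the NF-kB inhibitor A20, had 11.98, 12.09 and 12.15 CPM in VPR induced libraries, against 49.7, 54.5 and 52.4 CPM in VPR uninduced libraries. In the repressor line it had 60.4, 60.9 and 61.4 CPM in KM induced libraries, against 54.5, 54.9 and 53.8 CPM in KM uninduced libraries. It was low in the VPR induced libraries alone, and the rise with the repressor was small, though without overlap (log2 -2.11 with the activator and 0.16 with the repressor). Nfkbia, another inhibitor of the pathway (-0.26 with the activator and 0.21 with the repressor), and Rela, a subunit (-0.13 and 0.12), were also opposed. The subunits Relb (1.11 and 0.24) and Nfkb2 (0.16 and 0.17) rose in both lines, and the secreted factors Csf1 (-1.98 and -0.16), Cxcl1 (-1.57 and -0.57) and Ccl7 (-1.72 and -0.30) fell in both.

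In the TGF-beta and BMP response, 3 of 18 genes rose and 13 fell with the activator and 4 rose and 0 fell with the repressor. Here and for the clock genes below, the shares over all genes were 38.6% and 37.9% with the activator. With the repressor they were 5.16% and 4.55%. Its opposed members were the feedback inhibitors Smad7 (log2 -0.44 with the activator and 0.10 with the repressor), Skil (-0.19 and 0.16) and Pmepa1 (-0.41 and 0.15), of which DESeq2 called 1 opposed. Of 17 circadian clock genes, 1 rose and 12 fell with the activator and 3 rose and 0 fell with the repressor. Per2, a repressor of the clock, had 3.90, 2.89 and 3.98 CPM in VPR induced and 9.35, 10.7 and 9.72 CPM in VPR uninduced libraries, and 16.6, 16.6 and 15.4 CPM in KM induced and 13.6, 12.8 and 13.5 CPM in KM uninduced libraries. Per2 and Bhlhe40 (-1.11 with the activator and 0.15 with the repressor) were the opposed clock genes with TMM, while DESeq2 called 0 of the 17 with the repressor.

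The lowest interaction among the named genes was that of Adgrg1, an adhesion G protein-coupled receptor that binds collagen III. It had 10.3, 6.70 and 9.38 CPM in VPR induced libraries, against 12.6, 10.8 and 11.9 CPM in VPR uninduced libraries. The KM induced libraries had 118.2, 113.3 and 113.1 CPM, against a mean of 13.94 ± 0.084 CPM in KM uninduced libraries (SD, n = 3), the lowest of them at 13.85 CPM. High values were confined to the KM induced libraries among the 12. The gene rose 8.23-fold with the repressor (log2 3.04, SE 0.055) and fell 1.32-fold with the activator (log2 -0.40, SE 0.092). With dCas9 alone, at the same number of hours as the repressor and a lower dose, its log2 change was 0.10 (adjusted p = 0.716).

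The other genes named in this class had no overlap within a line, which was a condition for naming them. The same held for 324 of the 335 genes of the class. It also held for 220 of the 234 genes that did the reverse, 307 of 328 higher in both and 376 of 392 lower in both. Among genes called with the activator only it held for 2114 of 10816. Being called in both inductions largely brings this about, so it is no separate result. Syt13, a synaptotagmin, had 1.84, 1.64 and 2.02 CPM in VPR induced and 3.98, 2.98 and 4.14 CPM in VPR uninduced libraries, and 8.47, 8.76 and 8.64 CPM in KM induced and 3.58, 3.67 and 3.38 CPM in KM uninduced libraries. Every uninduced Syt13 library lay between the induced groups. Tmem171, a membrane protein, changed by -1.33 with the activator and 0.89 with the repressor on the log2 scale, and Fam71f1 by -0.82 and 1.34. Csf3, the granulocyte colony-stimulating factor, fell more with the activator and rose less with the repressor (-2.59 and 0.27).

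Genes that rose with the activator and fell with the repressor included much of the fibroblast matrix. Of 29 tested matrix genes, 22 rose and 5 fell with the activator (38.6% and 37.9% of all genes). With the repressor 1 rose and 16 fell (5.16% and 4.55% of all genes). The opposed members were 12: the collagens Col1a1, Col3a1, Col6a1, Col6a2 and Col12a1, the glycoproteins Fn1, Sparc, Fbn1 and Fbln2, the proteoglycan Bgn, the collagen cross-linking enzyme Lox and the collagen chaperone Serpinh1. That number was 13 with RLE, 13 with the upper quartile, 4 with total counts and 0 with mitochondrial scaling, under which 29 of the 29 fell with the activator. The fall with the repressor was called for 16, 16, 16, 12 and 14 members in the same order of scalings, starting from TMM.

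Col3a1, a chain of fibrillar collagen III, had 1222, 1301 and 1427 CPM in VPR induced libraries, against 1038, 1030 and 1088 CPM in VPR uninduced libraries. It had 934.9, 949.2 and 931.5 CPM in KM induced libraries, against 1170, 1189 and 1240 CPM in KM uninduced libraries. The groups of each line did not overlap, and the interaction was 0.68 (SE 0.058, edgeR adjusted p = 3.4e-09). Col1a1, a chain of collagen I, averaged 9238 ± 47.9 CPM in VPR induced and 7957 ± 102 CPM in VPR uninduced libraries, and 7220 ± 76.8 CPM in KM induced and 8583 ± 54.2 CPM in KM uninduced libraries (SD, n = 3 each). Lox changed by 0.30 with the activator and -0.38 with the repressor on the log2 scale. Loxl2, a related cross-linking enzyme, rose in both lines (0.33 with the activator and 0.14 with the repressor), and Timp3, an inhibitor of metalloproteinases, fell in both (-0.27 and -0.38), as did Col5a1 (-0.09 and -0.11) and Col6a3 (-0.29 and -0.35). In these bulk libraries fewer cells of a type and less RNA per cell cannot be told apart. With TMM the summed fibroblast markers given above, some of them also matrix genes, were likewise higher in VPR induced and lower in KM induced than in uninduced libraries of each line. Of the 9 markers tested, 4 were opposed and 2 fell in both. These 2 were Pdgfra (-1.14 with the activator and -0.25 with the repressor) and Pdgfrb (-1.15 and -0.21). The markers' median log2 change with the activator was 0.20 with TMM, -0.02 with total counts and -0.54 with mitochondrial scaling.

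Most genes of the integrated stress response fell with the repressor. This response raises the transcription factor ATF4 when amino acids are short or protein synthesis is strained, and ATF4 switches on amino acid synthesis and transport. With the repressor 0 of 24 tested genes rose and 20 fell by edgeR (0 and 22 at an unadjusted p of 0.05, 0 and 19 by DESeq2), and with the activator 9 rose and 10 fell, near the shares of all genes (38.6% and 37.9%). Over all genes, 5.16% rose and 4.55% fell with the repressor. The list's median log2 change was -0.04 with the activator and -0.24 with the repressor. The 9 opposed genes were Asns, Psat1, Phgdh, Psph, Shmt2, Mthfd2, Aldh18a1 and Pycr1, enzymes of asparagine, serine, one-carbon and proline synthesis, and Sesn2, a stress-induced inhibitor of mTORC1 signalling. The 7 that fell in both lines were Atf4 itself, its partner gene Cebpg, its targets Trib3 and Chac1, the amino acid transporters Slc3a2 and Slc7a1, and the lipoprotein receptor Vldlr. This division into enzymes and others was read from the values and carries no test. The opposed number was 10 with RLE, 11 with the upper quartile, 4 with total counts and 0 with mitochondrial scaling, under which 20 members fell in both.

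ATF4 binds, with a partner of the C/EBP family, composite sites that read TGATGNAA. The promoters of Asns (chr6:7693210-7693459, minus strand), which was opposed, and Chac1 (chr2:119350992-119351241, plus strand), which fell in both, are shown because both held this sequence, in capitals, within the 250 bases before the RefSeq start.

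Asns: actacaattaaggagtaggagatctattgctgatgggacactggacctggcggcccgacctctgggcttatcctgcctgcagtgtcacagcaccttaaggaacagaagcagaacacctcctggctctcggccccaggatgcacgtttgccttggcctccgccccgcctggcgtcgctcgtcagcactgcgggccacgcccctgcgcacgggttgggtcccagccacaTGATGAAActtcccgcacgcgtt

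Chac1: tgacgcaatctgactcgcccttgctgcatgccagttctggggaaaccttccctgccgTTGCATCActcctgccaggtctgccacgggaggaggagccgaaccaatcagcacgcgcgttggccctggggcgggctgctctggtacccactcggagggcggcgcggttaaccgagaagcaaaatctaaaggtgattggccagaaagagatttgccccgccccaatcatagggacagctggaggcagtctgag

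The match lay 23 bases before the start of Asns, reading TGATGAAA, and 193 bases before that of Chac1, on the other strand, reading TTGCATCA. On either strand TGATGNAA was found in 3.45% of all promoter windows and in 1.95% of those of tested genes. It was found in 4.67% of promoters of genes that rose with the activator and fell with the repressor and in 4.24% of those that did the reverse, and in 1.7% and 2.14% of those higher and lower in both.

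Asns, the asparagine synthetase, had 313.9, 308.3 and 300.6 CPM in VPR induced libraries, against 211.8, 218.7 and 220.4 CPM in VPR uninduced libraries. It had 191.5, 184.3 and 188.2 CPM in KM induced libraries, against 234.5, 243.2 and 241.4 CPM in KM uninduced libraries. The 4 groups did not overlap, with both uninduced groups between the induced ones. The interaction was 0.86 (SE 0.041, edgeR adjusted p = 1.71e-26), but 0.12 and not called with mitochondrial scaling (adjusted p = 0.0568). The log2 change with dCas9 alone was 0.03 (adjusted p = 0.741). Chac1, an enzyme that degrades glutathione, averaged 14.8 ± 0.331 CPM in VPR induced and 21.8 ± 0.065 CPM in VPR uninduced libraries, and 27.0 ± 1.6 CPM in KM induced and 33.0 ± 0.392 CPM in KM uninduced libraries (SD, n = 3 each). Atf4 fell by 0.29 with the activator and by 0.20 with the repressor on the log2 scale, and its interaction of -0.09 was not called (adjusted p = 0.0626).

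The genes of this class named by the size of both changes had low or moderate levels, apart from the model AC149090.1. Fmod, the collagen-binding proteoglycan fibromodulin, had 19.1, 20.6 and 22.8 CPM in VPR induced and 15.1, 14.7 and 16.9 CPM in VPR uninduced libraries, and 13.8, 12.2 and 12.4 CPM in KM induced and 21.1, 21.2 and 23.3 CPM in KM uninduced libraries. The KM uninduced libraries were thus as high as the VPR induced ones, and the directions are relative to each line's own uninduced libraries. Ogn, a related proteoglycan (log2 0.49 with the activator and -0.44 with the repressor), and Ptn, the growth factor pleiotrophin (0.64 and -0.65), also had KM uninduced libraries that overlapped the VPR induced ones. The activator changes of Fmod, Ogn and Ptn turned negative with mitochondrial scaling, at -0.31, -0.25 and -0.10. Pmaip1, the pro-apoptotic p53 target Noxa (0.77 and -0.68), and Aoc3, an amine oxidase (1.84 and -0.47), were the others besides AC149090.1. The repressor call of Pmaip1 was lost without KM induced library 2 or 3 or KM uninduced library 2 (adjusted p between 0.0514 and 0.0745) and with DESeq2 (0.0516), and its activator call was lost with mitochondrial scaling (log2 0.034, adjusted p = 0.87). The repressor call of Aoc3 was lost without KM induced library 1 or 2 or KM uninduced library 2 or 3 (adjusted p between 0.0873 and 0.222). It was also lost with total counts (0.0719), with mitochondrial scaling (0.0502), with no filter (0.0612), with DESeq2 (0.106) and with limma-voom (0.0567). The repressor call of Ptn was lost without any 1 of the KM induced libraries, KM uninduced library 1 or 3 or VPR uninduced library 3 (adjusted p between 0.0546 and 0.104). It was also lost with total counts (0.0603).

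AC149090.1, a protein-coding model known by its clone name on the unplaced scaffold JH584304.1, had 1254, 1277 and 1268 CPM in VPR induced libraries, against 228.3, 223.4 and 233.5 CPM in VPR uninduced libraries. It had 113.6, 119.4 and 119.9 CPM in KM induced libraries, against 165.5, 167.6 and 163 CPM in KM uninduced libraries. It was the steepest rise with the activator among the 6, 5.55-fold (log2 2.47, SE 0.028), and fell 1.41-fold with the repressor (log2 -0.49, SE 0.032). With dCas9 alone it also fell, by 0.20 on the log2 scale (adjusted p = 2.3e-05). Sfi1, a centrosomal protein gene chosen after its values were seen, was opposed too (0.81 with the activator and -0.28 with the repressor).

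Large housekeeping lists rose with the activator and were nearly still with the repressor. Of 82 cytosolic ribosomal protein genes, 80 rose and 1 fell with the activator, and 0 rose and 4 fell with the repressor. Of 78 nuclear genes of oxidative phosphorylation, 76 rose with the activator and 5 fell with the repressor. Over all genes, 38.6% rose and 37.9% fell with the activator, and 5.16% rose and 4.55% fell with the repressor. Opposed members, all higher with the activator, numbered 4 of 82 and 5 of 78, where 1.48% of all genes were in that class. The median interactions of the 2 lists were 0.57 and 0.56. Those medians turned to -0.15 and -0.17 with mitochondrial scaling, under which 81 of the 82 and 71 of the 78 fell with the activator. Rplp0, of the ribosomal stalk, had 2246, 2176 and 2061 CPM in VPR induced and 1430, 1463 and 1427 CPM in VPR uninduced libraries, and 1316, 1310 and 1303 CPM in KM induced and 1449, 1428 and 1422 CPM in KM uninduced libraries. Uqcrc2, a subunit of respiratory complex III, changed by 0.60 with the activator and -0.14 with the repressor. The 15 mitochondrially encoded genes all rose with the activator with TMM and 0 were called with the repressor by edgeR or DESeq2, with 1 higher at an unadjusted p of 0.05.

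**Figure D4:**
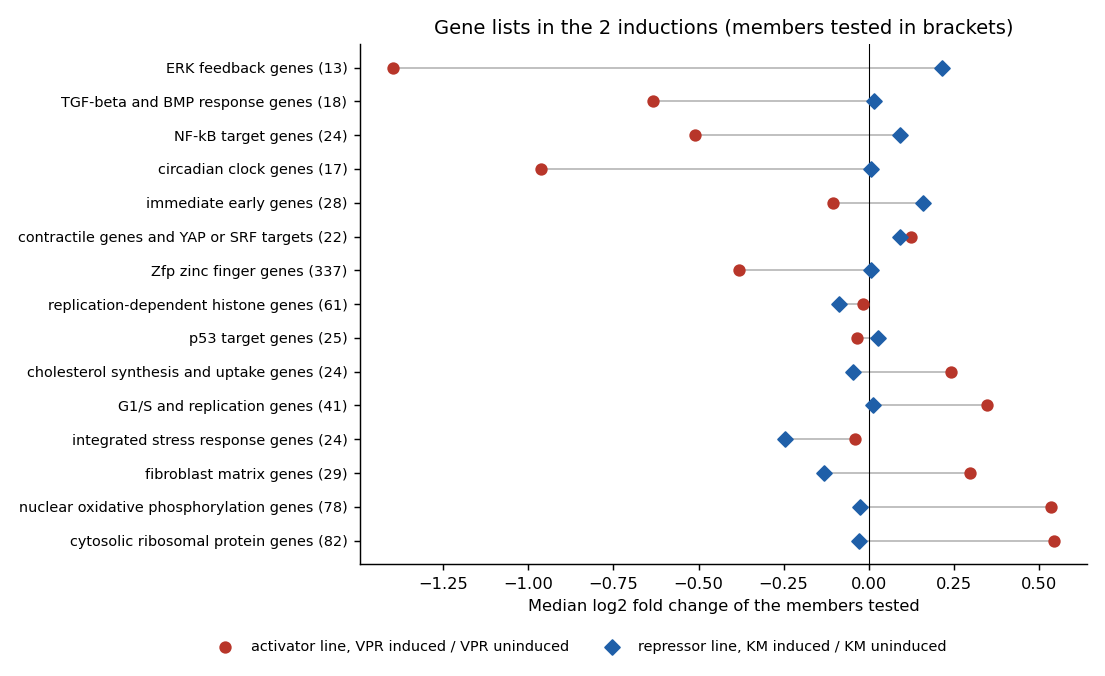
Median log2 change (x axis) of the tested members of 15 gene lists (rows, with the number tested in brackets) in the activator line (circles) and the repressor line (diamonds), with TMM scaling. Repressor medians lay between -0.24 and 0.21, and activator medians between -1.40 for ERK feedback genes and 0.55 for ribosomal protein genes.

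Among the 328 genes higher in both inductions, the interaction was called for 186 and not called for 142. It was higher with the activator for 181 of the 186. Adam8, a metalloproteinase of the cell surface, had 11.2, 11.6 and 11.4 CPM in VPR induced libraries, against 2.58, 3.15 and 3.72 CPM in VPR uninduced libraries. It had 4.71, 4.08 and 5.03 CPM in KM induced libraries, against 2.61, 2.69 and 1.66 CPM in KM uninduced libraries. The induced libraries were above their own line's uninduced libraries throughout, as the naming rule required. The rise was 3.70-fold with the activator and 1.95-fold with the repressor. The interaction was 0.93 (edgeR adjusted p = 0.000122), but 0.19 and not called with mitochondrial scaling (0.389). Il34, a ligand of the CSF1 receptor (log2 2.46 with the activator and 0.83 with the repressor), Tbr1, a T-box factor (2.61 and 0.79), and Bdh2, a dehydrogenase of ketone and siderophore metabolism (1.78 and 0.82), also rose more with the activator, though the interaction of Bdh2 was not called with mitochondrial scaling (0.24, adjusted p = 0.44). Their repressor calls were weak. That of Il34 was lost without KM induced library 2 or 3 or KM uninduced library 1 (adjusted p between 0.0609 and 0.0777). That of Tbr1 was lost without KM induced library 1 or 3 or KM uninduced library 2 or 3 (0.0566 to 0.083) and with DESeq2 (0.0509), and that of Bdh2 without KM induced library 3 (0.0545).

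The interactions of Maff, Junb and Nfkb2, list members given above that rose in both lines, were not called. Among the 6 genes of this class named by the size of both changes, only Ulbp1, a ligand of the natural killer cell receptor NKG2D, had no interaction call. Ulbp1 had 5.42, 7.03 and 5.75 CPM in VPR induced libraries, against 3.52, 3.02 and 2.34 CPM in VPR uninduced libraries. It had 7.46, 7.38 and 6.13 CPM in KM induced libraries, against 4.11, 3.58 and 4.35 CPM in KM uninduced libraries. The rises were of like size, at log2 0.98 and 0.81, and the interaction of 0.18 (SE 0.195) was not called (edgeR adjusted p = 0.439). With mitochondrial scaling the rise with the activator was not called (0.24, adjusted p = 0.0989) and the interaction was -0.55 and called (0.00671). Grk1, the rhodopsin kinase, had 13.6, 13.7 and 14.1 CPM in VPR induced and 0.227, 0.245 and 0.480 CPM in VPR uninduced libraries. Its repressor call lay at very low levels, 0.477, 0.443 and 0.262 CPM in KM induced and 0.097, 0.177 and 0.054 CPM in KM uninduced libraries, and it was lost without KM induced library 1 or 2 or KM uninduced library 1 or 3 (adjusted p between 0.108 and 0.138), with DESeq2 (0.0594) and with no filter (0.0574).

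**Figure D5:**
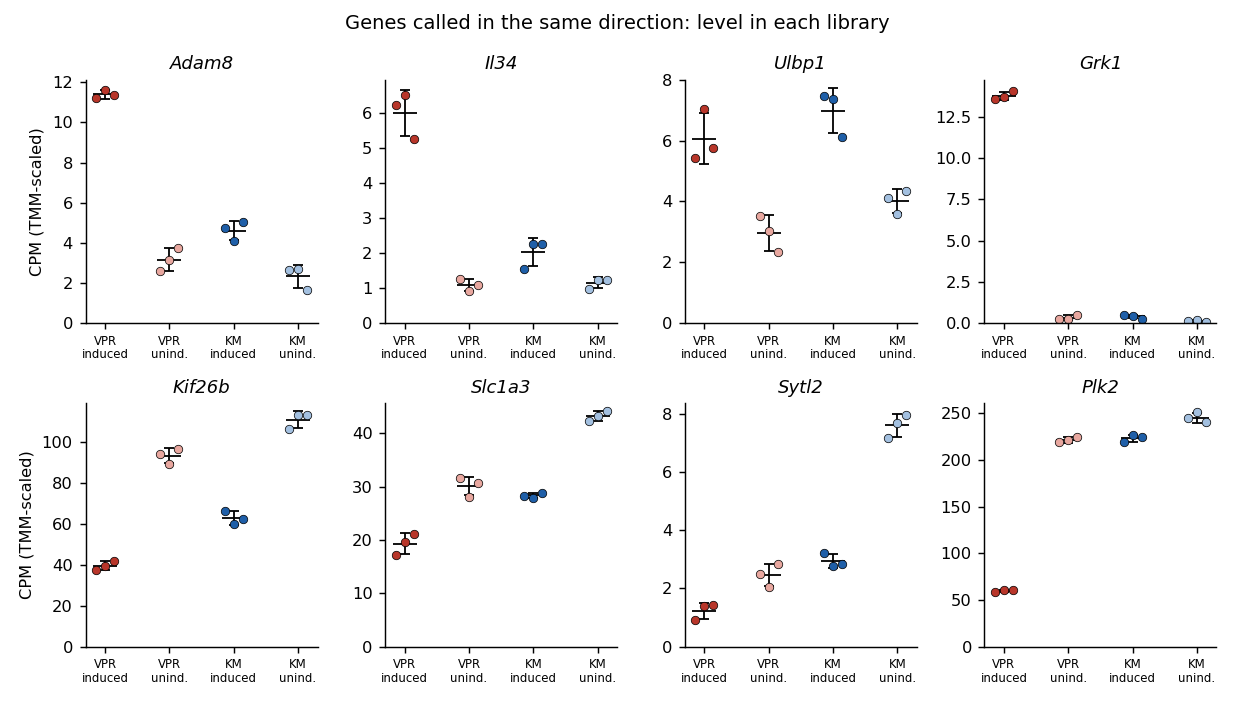
CPM after TMM scaling (y axes, from 0) of 8 genes called in the same direction in both inductions, in each library of the 4 groups (x axes, induced left of uninduced in each line), with the mean and its SD over n = 3. Adam8, Il34, Ulbp1 and Grk1 were higher in the induced libraries of both lines, and Kif26b, Slc1a3, Sytl2 and Plk2 lower.

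Genes lower in both inductions also fell further with the activator in most cases. The interaction was called for 276 of the 392, lower for 271 of them. Kif26b, a kinesin-like protein of the WNT5A-ROR pathway, had 37.5, 39.6 and 41.7 CPM in VPR induced libraries, against 94.1, 89.3 and 96.4 CPM in VPR uninduced libraries. It had 66.3, 59.7 and 62.6 CPM in KM induced libraries, against 106.2, 113.2 and 113.4 CPM in KM uninduced libraries. No induced library overlapped the uninduced ones of its line, as the naming rule required. The gene fell by 1.23 with the activator and by 0.82 with the repressor on the log2 scale, with an interaction of -0.41 (SE 0.06, edgeR adjusted p = 2.23e-08). Plk2, a kinase and p53 target, fell by 1.89 with the activator and by 0.14 with the repressor, so its groups differed 3.70-fold in the activator line and 1.10-fold in the repressor line.

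Slc1a3, a glutamate and aspartate transporter, had 17.1, 19.7 and 21.1 CPM in VPR induced libraries, against 31.6, 28.2 and 30.7 CPM in VPR uninduced libraries. It had 28.3, 27.9 and 28.9 CPM in KM induced libraries, against 42.3, 43.2 and 44.3 CPM in KM uninduced libraries. The falls were 1.56-fold with the activator and 1.53-fold with the repressor, and the interaction was -0.03 (SE 0.083, adjusted p = 0.762 by edgeR), but -0.28 and called with total counts (0.00674). Rspo3, a secreted amplifier of WNT signalling (log2 -0.61 with the activator and -0.63 with the repressor), and Mmp28, a metalloproteinase (-0.68 and -0.65), had interactions of 0.02 and -0.03 that were not called either. With mitochondrial scaling the interactions of Slc1a3, Rspo3 and Mmp28 were -0.76, -0.71 and -0.75, all called (adjusted p of 9.25e-16, 0.000116 and 0.00733). The fall of Mmp28 was lost without VPR induced library 1 in the activator line (adjusted p = 0.0528) and without KM induced library 1 or KM uninduced library 2 in the repressor line (0.059 and 0.0743). A p above the threshold does not show that the changes were equal. Sytl2, a vesicle trafficking protein, fell further with the repressor (-0.97 with the activator and -1.38 with the repressor), while its interaction of 0.41 was not called (adjusted p = 0.165), and Gramd1b, a sterol transporter, fell by 1.00 with the activator and by 0.61 with the repressor. The interaction of Gramd1b was not called (-0.39, adjusted p = 0.0928), but was without KM uninduced library 3 (0.0286) or VPR induced library 3 (0.021), with total counts (0.00745) and with mitochondrial scaling (5.89e-08).

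Among the named genes with a mean of at least 5 CPM, the highest interactions belonged to genes that rose with the activator and were not called with the repressor. That mean was taken over all 12 libraries, so a gene could reach it through the VPR induced libraries alone. Pecam1, an adhesion protein of endothelial cells, had 22.1, 22.9 and 18.1 CPM in VPR induced libraries, against 0.265, 0.368 and 0.180 CPM in VPR uninduced libraries. It had 0.179, 0.197 and 0.210 CPM in KM induced libraries, against 0.290, 0.397 and 0.537 CPM in KM uninduced libraries. It reached the mean of 5 CPM only through the VPR induced libraries, so its height there alone is no separate result. Its repressor change of -1.02 was not called (edgeR adjusted p = 0.23), and at such low levels a missing call says little. Of the other 7 endothelial markers, Emcn and Cldn5 had no count in any of the 12 libraries, and the list summed to 19.6 to 24.3 CPM in VPR induced and 0.486 to 0.786 CPM in VPR uninduced libraries. Trpm6, an ion channel (log2 5.57 with the activator and -0.78 with the repressor, the second not called), L3mbtl1, a chromatin reader (5.44 and 0.52), and Col20a1, a collagen (5.16 and 0.45), had the same pattern.

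The last lists were those of the cell cycle, of chromatin and of p53. For each of them, 38.6% of all genes rose and 37.9% fell with the activator, and 5.16% rose and 4.55% fell with the repressor. Opposed genes were 1.48% (higher with the activator) and 2.12% (lower with it) of all genes. Of 41 G1/S and replication genes, 29 rose and 9 fell with the activator, and 0 were called with the repressor by edgeR or DESeq2 (3 higher and 2 lower at an unadjusted p of 0.05). Among 38 G2/M genes 4 rose in both lines with TMM, Ccnb2, Mki67, Ube2c and Anln (2.07% of all genes did), and Bub1b was opposed. With DESeq2 2 rose in both, with total counts 1 and with mitochondrial scaling 0. Of 61 replication-dependent histone genes, 18 rose and 14 fell with the activator (38.6% and 37.9% of all genes). With the repressor 0 rose and 10 fell (5.16% and 4.55% of all genes). Of these 10, 7 fell in both lines (2.48% of all genes), such as Hist1h3g (log2 -0.45 with the activator and -0.14 with the repressor). Hist1h2bg (0.34 and -0.12) and Hist1h4i (0.23 and -0.17) were opposed. In the interaction 19 were called higher and 5 lower (31.4% and 33.2% of all genes). Both-lower histone genes numbered 5 with DESeq2, 5 with total counts and 12 with mitochondrial scaling. Of 46 heterochromatin and silencing factor genes, 17 rose and 19 fell with the activator, near the shares of all genes (38.6% and 37.9%), and 3 rose and 1 fell with the repressor. Of 337 Zfp zinc finger genes, 61 rose and 205 fell with the activator, against 9 and 9 with the repressor, and 5 were opposed. Of 25 p53 targets, 0 rose and 4 fell with the repressor (2 higher and 4 lower at an unadjusted p of 0.05, 0 and 2 by DESeq2), and Pmaip1, Sesn2 and Trp53inp1 (0.39 with the activator and -0.43 with the repressor) were opposed with TMM. DESeq2 called 1 of the 25 opposed, total counts gave 1 and mitochondrial scaling 0.

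Markers of other cell types were summed in each library. Adipocyte markers summed to 163.3 to 173.2 CPM in VPR induced, 130.8 to 135.5 CPM in VPR uninduced, 147 to 153 CPM in KM induced and 151.4 to 155.9 CPM in KM uninduced libraries. Most of that was Lpl, the lipoprotein lipase, at a mean of 163.4 CPM in VPR induced and 131.3 CPM in VPR uninduced libraries. Of 3 tested adipocyte markers, 2 rose with the activator (38.6% of all genes), too few to compare. With the repressor 0 were called by edgeR (9.71% of all genes), at an unadjusted p of 0.05 or by DESeq2. Epithelial markers summed to 3.08 to 3.58 CPM in VPR induced, 3.48 to 3.89 CPM in VPR uninduced, 2.99 to 3.50 CPM in KM induced and 3.69 to 4.46 CPM in KM uninduced libraries, with Epcam, Krt5 and Esrp1 at 0 in all 12. Macrophage markers summed to 8.68 to 9.77 CPM in VPR induced, 7.44 to 8.81 CPM in VPR uninduced, 7.07 to 8.03 CPM in KM induced and 6.96 to 8.36 CPM in KM uninduced libraries, with Tyrobp at 0 in all 12. Neuronal markers summed to 21.1 to 22.4 CPM in VPR induced and 33.9 to 36.0 CPM in VPR uninduced libraries, and to 52.8 to 54.3 CPM in KM induced and 33.2 to 35.7 CPM in KM uninduced libraries. Nearly all of that was Tubb3, a tubulin, which was opposed (log2 -0.70 with the activator and 0.63 with the repressor), and Rbfox3, Snap25 and Dcx were at 0 in all 12 libraries. Muscle markers summed to 11.2 to 13.2 CPM in VPR induced, 8.48 to 10.6 CPM in VPR uninduced, 10.76 to 11.95 CPM in KM induced and 6.71 to 6.76 CPM in KM uninduced libraries. Of the 5 muscle markers tested, 3 rose and 1 fell with the activator (38.6% and 37.9% of all genes). With the repressor 2 rose and 0 fell (5.16% and 4.55% of all genes). The 1 that fell with the activator was Tnnt2, which was opposed (-0.69 with the activator and 0.70 with the repressor), and Myod1 was at 0 in all 12. The part of any such cells in the results above was not tested.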

How the data were processed

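RNA of 18 libraries was measured by total RNA sequencing of stranded, paired-end libraries, per the labels' protocols, and 12 libraries were compared. The deposited table holds whole-number read counts per gene, unnormalized, as the authors made them. The genome build was mm10, per the submitters' processing notes. The sources used here name no aligner, counter, annotation or strand setting, so counts of overlapping, antisense or near-identical genes are uncertain. Symbols and GRCm38 positions came from GENCODE M21, which held 47310 of 47937 IDs, and the other 627 held 0.0423% of the counts. Satellite gene models were found by 15-base words shared with the transcripts of Gm10800 and Gm26870, at a coverage of at least 50%, and summed. Promoter sequences are RefSeq's.

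Genes kept by filterByExpr, 15837 in all, were fitted in edgeR 4.0.16 (R 4.3.3) with TMM factors, 1 coefficient per group, robust glmQLFit and glmQLFTest, and Benjamini-Hochberg adjustment at 0.05. The fit had 8 residual degrees of freedom and a common biological coefficient of variation of 0.0244. SEs were computed as the log2 change over the square root of F. The test was tested on simulated data. An opposed gene had to be called in both inductions with opposite signs and in the interaction. Replicate pairs of every group differed beyond sampling noise. Members, the 33 gene lists and the tests were chosen with earlier results of these data known.

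Genes were named by rule: protein-coding, a mean of at least 2 CPM, no overlap within a line, up to 6 per class by the smaller change, up to 4 per direction by interaction with at least 5 CPM, and up to 2 per list. Other list members called in both inductions are named to describe a list. Some genes that the rule or a list holds are not reported here. Alternatives were 4 other scalings, no filter, DESeq2 1.42.0, limma-voom 3.58.1, all 18 libraries, replicate blocks, each of 12 libraries left out and a minimum change of 1.5-fold.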

Additional observations from a re-analysis of the deposited data

Results flagged for a closer look

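Activator and repressor inductions differed in the interaction, by edgeR at an adjusted p of 0.05, for the summed satellite models and for 26 named genes called in opposite directions. Values are the log2 change with the activator minus that with the repressor. The satellite models were at 9.83. Genes that rose with the activator and fell with the repressor were AC149090.1 at 2.96, Aoc3 at 2.31, Pmaip1 at 1.46, Ptn at 1.29, Fmod at 1.21, Ogn at 0.93, Asns at 0.86, Uqcrc2 at 0.73, Rplp0 at 0.72, Col3a1 at 0.68, the histone gene Hist1h2bg at 0.46 and the endothelial receptor Tek, below 1.3 CPM in all libraries, at 3.40. The repressor call of Tek (edgeR adjusted p = 0.047) was lost with DESeq2, limma-voom, total counts and mitochondrial scaling, which gave 0 opposed endothelial markers.

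Genes that fell with the activator and rose with the repressor were Adgrg1 at -3.44, Csf3 at -2.86, Ankrd1 at -2.68, Ccn2 at -2.41, Dusp6 at -2.30, Tnfaip3 at -2.27, Syt13 at -2.26, Tmem171 at -2.22, Dusp4 at -2.19, Fam71f1 at -2.16, Per2 at -1.73, Tnnt2 at -1.39 and Tubb3 at -1.33. Hspa1b, a heat shock protein gene, was at -1.93, and its counts are uncertain because Hspa1a is a near-identical copy.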

How the results depend on the processing

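With total counts, 62 genes rose with the activator and fell with the repressor, 614 did the reverse and 257 were lower in both, and higher calls were 26.7% of the interaction calls, against 48.6% with TMM, 52.1% with RLE and 57.4% with the upper quartile. With mitochondrial scaling those higher calls were 7.16%, the repressor induction had 970 calls, and the first class held 8 genes and the class higher in both 21. DESeq2 gave 985 repressor calls, 198 genes lower with the activator and higher with the repressor, 197 higher in both and 243 lower in both. A change of at least 1.5-fold in each line left 11, 33, 24 and 20 genes. Without the filter the repressor change of the satellite models was -2.84 (adjusted p = 0.0519). The causes of these shifts were not tested.

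Mitochondrial scaling reversed the activator change of Ptn (-0.10), Ogn (-0.25) and Fmod (-0.31) and the interaction of Ulbp1 (-0.55), Rspo3 (-0.71), Pdia3 (-0.14), Col3a1 (-0.052), Rplp0 (-0.017), Rpl35 (-0.029), Hist1h2ad (-0.25), Hist1h2bg (-0.27) and Lpl (-0.38). Of 2991 values of 136 results of named genes, 2909 kept their direction and side of the threshold, 63 lost a call, 7 gained one and 12 reversed.

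Leaving out 1 library gave 1016 to 1922 repressor calls, 144 to 323 genes higher with the activator and lower with the repressor, 247 to 399 the reverse, 199 to 412 higher in both and 255 to 482 lower in both. KM uninduced library 2 (1016, 144, 199 and 257, in that order without the reverse class) and KM induced library 2 (147, 211 and 255 in the 3 classes) moved counts by over 1.5 times. The satellite repressor change ranged from -2.90 to -2.75 and was lost without any 1 repressor-line library. Samples with the same number deviated together weakly at most (correlations from -0.064 to 0.134). Between VPR induced and VPR uninduced libraries they were at 0.0404, 0.0963 and 0.134, against -0.139 to 0.0565 for unlike numbers. With the replicate number as a block, 273, 360, 364 and 433 genes fell in the 4 classes, with 10287 interaction calls, and no count moved by over 1.5 times. The repressor change of the satellite models came from very few reads in KM induced libraries, though DESeq2 called it (adjusted p = 1.755e-24).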

Other observations

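Of 20 genes of endoplasmic reticulum chaperones and the unfolded protein response, 16 rose and 3 fell with the activator (shares over all genes 38.6% and 37.9%), and 2 rose and 1 fell with the repressor (5.16% and 4.55%). Herpud1, which helps degrade misfolded proteins of that compartment, was opposed (log2 0.30 with the activator and -0.23 with the repressor), and the chaperones Dnajb11 (0.37 and 0.13) and Dnajc3 (0.40 and 0.11) rose in both. Of 18 heat shock genes, 10 rose and 4 fell with the activator and 1 rose and 2 fell with the repressor, and the chaperones Hsp90ab1 (0.39 and -0.10) and Hspd1 (0.32 and -0.14) were opposed. With total counts 4 of the heat shock genes rose and 9 fell with the activator, and with mitochondrial scaling 20 of 20 and 17 of 18 genes of the 2 lists fell.

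Of 11 hyaluronan genes, 4 rose and 6 fell with the activator (38.6% and 37.9% of all genes) and 3 rose and 2 fell with the repressor (5.16% and 4.55%). Cemip, which breaks hyaluronan down, fell in both (log2 -1.36 with the activator and -0.44 with the repressor), and Cemip2 (-0.63 and 0.13) and the receptor Cd44 (-0.10 and 0.10) were opposed with TMM, while DESeq2 called 0 of the 11 opposed. Of 24 cholesterol genes, 14 rose and 7 fell with the activator. With TMM 4 of the 24 fell in both (2.48% of all genes), among them Hmgcs1 (-0.32 and -0.11), Sqle (-0.65 and -0.10) and Stard4 (-0.72 and -0.13), and that number was 1 with DESeq2, with total counts and with mitochondrial scaling. Changes of at least 2-fold in both lines were called for 4 genes that rose with the activator and fell with the repressor, 5 that did the reverse, 10 higher in both and 4 lower in both. Among them, and chosen after its values were seen, was the metalloproteinase gene Mmp9 (1.43 and 1.47), with a mean of 1.21 CPM over the 12 libraries.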
